A study of Mus musculus with 6 samples.

Results

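The genes described here encode the junctions that join heart muscle cells end to end: the connexins Gja1, Gja5 and Gja4, the desmosome proteins Dsp, Pkp2, Jup, Dsg2 and Dsc2, the classical cadherin Cdh2 and the catenin Ctnna3. They were chosen by name, with earlier results of these data known, and each was represented by every probe that the platform annotation pairs with it. Of the 10 genes, 9 had a named probe among the 19057 genes with one, 19 probes in all, and no probe carried the name Dsp. The arrays are Illumina bead arrays of total heart RNA from male wild-type C57Bl6 mice on a regular chow diet, with 3 arrays in each of 2 groups. The control hearts came from mice that the labels describe as not operated on, whereas the column names of the deposited table call them sham. The sources at hand do not say which is right. The other group was taken 72 h (3 days) after ischemia-reperfusion (IR), in which the left anterior descending coronary artery was tied for 90 min under ketamine and pentobarbital anesthesia and then released. The whole organ was profiled, so injured and spared muscle share each value, and ages and the number of mice per array are not given in the sources used here. Nothing in the labels ties the arrays of a group to separate mice, so p-values measure the spread between arrays, which may be technical.

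The intercalated disc holds gap junctions, whose connexin channels pass ions and small molecules from cell to cell, together with desmosomes and adherens junctions, which carry force. Desmosomal cadherins (Dsg2, Dsc2) are tied to desmin filaments through plakoglobin (Jup), plakophilin 2 (Pkp2) and desmoplakin (Dsp), while N-cadherin (Cdh2) is tied to actin through catenins. In the heart both kinds are mixed in composite junctions, where αT-catenin (Ctnna3) binds plakophilin 2. Inherited variants of the human desmosome genes are a known cause of arrhythmogenic cardiomyopathy. Connexin 43 (Gja1) is the main connexin of working ventricular muscle, connexin 40 (Gja5) is found in atrial muscle, the conduction system and arterial endothelium, and connexin 37 (Gja4) is found in endothelium.

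The sequences before the starts of the 3 connexin genes are shown because these genes, members of one family, differed in their response. Each run gives the 250 bases upstream of the start in RefSeq, build GRCm38.p6, 5′ to 3′, and capitals mark matches to the motifs searched.
Gja1, chr10:56377050-56377299, plus strand: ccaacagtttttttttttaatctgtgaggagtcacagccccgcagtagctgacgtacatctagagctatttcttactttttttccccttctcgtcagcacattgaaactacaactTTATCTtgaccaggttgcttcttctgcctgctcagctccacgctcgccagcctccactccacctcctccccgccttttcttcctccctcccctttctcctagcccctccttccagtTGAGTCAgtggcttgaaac
Gja5, chr3:97032152-97032401, plus strand: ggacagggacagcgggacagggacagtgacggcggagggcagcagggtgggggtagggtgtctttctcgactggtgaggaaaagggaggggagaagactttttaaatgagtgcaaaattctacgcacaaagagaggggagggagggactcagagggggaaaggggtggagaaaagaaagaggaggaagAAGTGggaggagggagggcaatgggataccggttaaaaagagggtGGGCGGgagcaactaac
Gja4, chr4:127314040-127314289, minus strand: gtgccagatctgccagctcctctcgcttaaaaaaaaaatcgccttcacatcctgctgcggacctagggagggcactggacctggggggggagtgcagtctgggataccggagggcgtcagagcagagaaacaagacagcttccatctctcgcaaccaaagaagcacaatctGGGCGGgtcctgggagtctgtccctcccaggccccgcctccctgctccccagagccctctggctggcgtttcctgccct

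The search covered both strands and used, for the TATA box, the motif TATAAA, for the CCAAT box, the motif CCAAT, for the GC box, the motif GGGCGG, for AP-1, the motif TGANTCA, for GATA factors, the motif AGATAA, for T-box factors, the motif GGTGTG, and for NKX factors, the motif AAGTG. The Gja1 window held an AP-1 match 19 to 13 bases before the start, present in 6.75% of 32851 such windows, and a GATA match on the other strand, present in 9.99%. The Gja5 window held a GC box 17 to 12 bases before the start and an NKX match, found in 32.7% and 40.7% of windows. The Gja4 window held a single match, a GC box, and no matches overlapped one another. A match is a stretch of letters and not a measured binding site. Promoters of 6 of the 10 genes were in the table, and Pkp2, Dsg2, Dsc2 and Cdh2 had none there.

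Values below are log2 intensities after background correction, an added 16 and quantile normalization unless a raw intensity is named, and a probe counts as detected on an array where its detection p-value is under 0.05. Probes detected on at least 3 of the 6 arrays were kept, and the brightest kept probe stands for a gene. The median probe of an array had a raw intensity of 83.2 to 91.9, which is close to background. Most genes moved between these groups: limma, with p-values adjusted by Benjamini-Hochberg over 10204 genes, called 39.4% of them higher and 34.5% lower after IR. Values per array follow the order WTSham109, WTSham110 and WTSham904 for uninjured hearts and WT3D106, WT3D107 and WT3D886 for IR hearts, as the deposited columns are named. Uninjured array WTSham904 stood apart from the other uninjured arrays on the second principal component (-16.7 against 7.65 and 9.53), a component with 2.03% of the variance. Without it the same numbers of junction genes passed in each direction. The labelled tissue was checked against 13 cardiomyocyte markers, all of which were detected on all 6 arrays.

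Among the junction genes, Dsg2 fell most, by 5.11-fold, and Gja1, Pkp2, Ctnna3 and Cdh2 fell by 1.51-fold to 1.80-fold, while Gja5 rose by 1.21-fold. Gja4 did not pass. Of the 10 genes, 7 had a probe detected on at least 3 of the 6 arrays and were tested. Of these 5 fell and 1 rose, against 34.5% falling and 39.4% rising over all genes tested. Without Ctnna3, which met the filter through its uninjured arrays, 4 of the remaining 6 fell and 1 rose. A change of 2-fold or more was reached by Dsg2 alone. In 6 of the 7 genes, Ctnna3 among them, every IR array lay on one side of every uninjured array, and this held for 76.7% of all genes tested. Their median log2 fold change was -0.69, beside 0.05 for all genes, and the shares of genes with a lower log2 fold change were 20.5% for Gja1, 20.3% for Pkp2, 16.4% for Ctnna3, 23.4% for Cdh2 and 60.7% for Gja5. Both group means were measured in whole-heart RNA, where fewer cells of a type and less RNA per cell cannot be told apart.

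**Figure D1:**
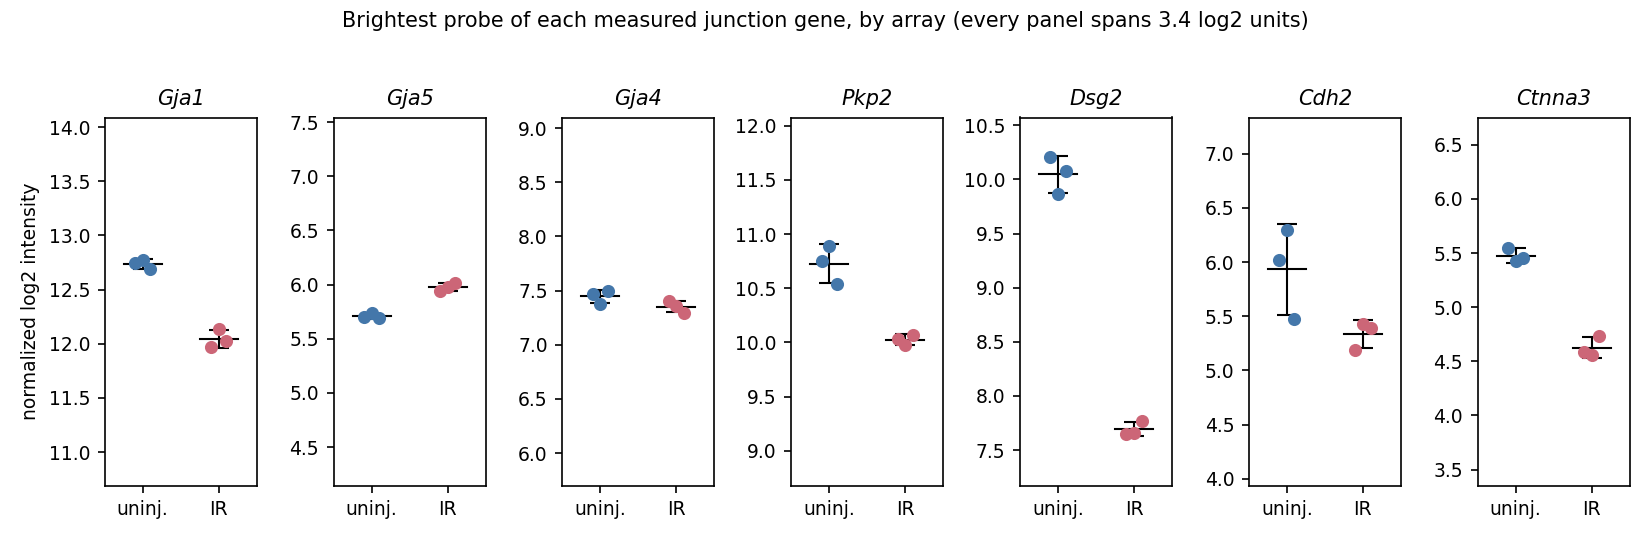
Normalized log2 intensity (y axis, 3.4 log2 units in every panel) of the brightest probe of the 7 measured junction genes on 3 uninjured and 3 IR arrays. Points are arrays, long bars are group means and error bars are ± 1 SD. Dsg2 shows the widest gap, Gja1, Pkp2, Ctnna3 and Cdh2 sit lower after IR, Gja5 sits slightly higher, and the Gja4 arrays overlap.

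Gja1, the ventricular connexin, was far above background on all arrays. Its 1 probe read raw intensities of 5938, 6795 and 6199 on the uninjured arrays, and 4505, 4863 and 4660 on the IR arrays. All 3 IR arrays lay below all 3 uninjured arrays before any normalization. In normalized values the uninjured mean was 12.74 ± 0.04 and the IR mean 12.04 ± 0.08 (SD, n = 3 each). Gja1 fell by 0.69 on the log2 scale, with a standard error (SE) of 0.07 and a limma adjusted p of 7.63e-05. The size of this fall depended on the scaling of the arrays: it was 0.46 when arrays were scaled to the median of all probes (all-probe median scaling) and 1.12 when scaled to the median of the kept probes, and it passed in both settings (adjusted p = 0.00431 and 2.19e-06).

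Gja5 has 5 probes on the platform, of which 3 were detected on all arrays and 2 lay mostly below detection. The brightest read 107, 107 and 108 in raw intensity on the uninjured arrays and 143, 148 and 149 on the IR arrays. The groups did not overlap on this probe, and its signal was not far above background in either. The 75th percentile of all probes was also higher on IR arrays, at 135 to 138 against 109 to 111 in raw intensity. In normalized values it gave 5.71 ± 0.02 in uninjured and 5.98 ± 0.04 in IR hearts (SD, n = 3 each). Gja5 rose by 0.27 on the log2 scale (SE 0.06, limma adjusted p = 0.00542). The other detected probes gave differences of 0.38 and 0.25, with overlapping groups, and did not pass in the fit over all kept probes (adjusted p = 0.126 and 0.127). The Gja5 call was lost with the 4 arrays WTSham109, WTSham110, WT3D106 and WT3D107 alone (0.24, adjusted p = 0.0580) and rested in size on the scaling, from 0.20 under the median of the kept probes to 0.86 under the median of all probes. Without background correction the rise was 0.12.

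The 1 probe of Gja4 read 200.1, 198 and 206 in raw intensity on the uninjured arrays, and 274, 272 and 263 on the IR arrays. Raw signals were thus higher on every IR array, as was the 75th percentile of all probes, which stood at 109 to 111 on uninjured and 135 to 138 on IR arrays. After quantile normalization the groups overlapped, at 7.45 ± 0.06 and 7.35 ± 0.05 (SD, n = 3 each). The log2 difference was -0.10 (SE 0.07, limma adjusted p = 0.240), with a 95% interval of -0.26 to 0.07. With all-probe median scaling it turned to 0.54 and passed (adjusted p = 0.000696), and under the median of the kept probes it was -0.12 (adjusted p = 0.161), so no direction is given for Gja4.

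Ratios between the connexins kept their direction but also moved with the scaling. A factor applied to a whole array cancels in a ratio within it, so both median scalings give the same value by construction. Within each array the log2 ratio of the Gja5 probe to the Gja1 probe ran from -7.04 to -7.00 in uninjured and from -6.16 to -6.00 in IR hearts. Its mean rose by 0.96, a 1.95-fold shift in favour of Gja5, and by 0.81 to 1.32 over the 18 alternative settings. The highest value came from both median scalings. The ratio of Gja4 to Gja1 shifted the same way by 0.60, with 0.54 to 1.00 over the alternatives, the highest again under both median scalings. A ratio shows unequal change, not the level of one connexin against the other, since probes differ in brightness. Of 7 such pairs, chosen after the data were seen, 5 gave groups that did not overlap. The share over all pairs of genes was not computed, and 76.7% of single genes did not overlap either. Groups that do not overlap must give a two-sided exact permutation p of 0.1, the smallest that 3 against 3 arrays allow. That p, 0.14 after Benjamini-Hochberg adjustment over the 7, therefore adds no support.

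The desmosome genes are led by Dsg2, the desmosomal cadherin that all desmosome-bearing tissues share. Its brightest probe read raw intensities of 1016, 875 and 983 on the uninjured arrays, and 313, 319 and 335 on the IR arrays. The highest IR array was well under the lowest uninjured array. In normalized values the means were 10.05 ± 0.17 and 7.70 ± 0.07 (SD, n = 3 each). Dsg2 fell by 2.35 on the log2 scale (SE 0.10, limma adjusted p = 7.70e-07), with a 95% interval of -2.59 to -2.12. Of all 10204 genes 2.24% had a lower log2 fold change. Both other kept probes of Dsg2 fell as well, with log2 differences of -1.98 and -1.60, the last being detected on 3 uninjured arrays and 1 IR array. That last probe met the filter through its uninjured arrays, so the filter favoured its fall. The fourth probe was detected on no array. Over all 18 alternatives the Dsg2 value lay between -2.50 and -1.84 and passed in each.

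Pkp2, the plakophilin that gathers desmosome proteins at the disc, was read by 3 probes that were detected on all arrays. The brightest had normalized values of 10.75, 10.89 and 10.54 on the uninjured arrays, and 10.04, 9.97 and 10.07 on the IR arrays. The uninjured arrays varied more (SD 0.18) than the IR arrays (SD 0.05), and the groups did not overlap. Pkp2 fell by 0.70 on the log2 scale (SE 0.10, limma adjusted p = 0.000449). The other probes fell by 0.65 and 0.83 (adjusted p = 0.00126 and 0.000386 over all kept probes). With all-probe median scaling the value was -0.30 and the call was lost (adjusted p = 0.0996). Raw intensities of the brightest probe were closer together, spanning 1338 to 1806 without injury and 1237 to 1321 after IR.

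Dsg2 fell further than Pkp2 in the measured values. The within-array log2 ratio of Dsg2 to Pkp2 ran from -1.03 to -0.46 in uninjured hearts and from -2.38 to -2.30 after IR, a fall of 1.65. As these groups did not overlap, the two-sided exact permutation p had to be 0.1, the smallest possible. It was 0.14 after Benjamini-Hochberg adjustment over the 7 pairs chosen after the data were seen, and adds no support. The ratio of Dsg2 to Gja1 fell by 1.66, whereas that of Pkp2 to Gja1 moved by -0.01, with overlapping groups (two-sided exact permutation p = 0.9). Over the alternatives the Dsg2 to Pkp2 change lay between -1.83 and -1.25.

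The remaining desmosome genes gave no measurement. The Jup probe, for plakoglobin, read raw intensities of 82.8 to 84.4 without injury and 88.5 to 94.4 after IR and was not above background on any of the 6 arrays. The Dsc2 probe, for desmocollin 2, read 77.5 to 90.0 and 84.0 to 86.5 and was likewise detected on none. No fold change is given for either gene, and Dsp, the plakin that anchors desmin filaments, is not analysed here. A probe that reads background says nothing of the transcript level that another probe might show.

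At the adherens junction, the Cdh2 probe gave normalized values of 6.02, 6.30 and 5.48 on the uninjured arrays, and 5.19, 5.43 and 5.39 on the IR arrays. Array WTSham904 lay just above the IR arrays, and the spread among uninjured arrays was the widest of the 7 genes (SD 0.42). Cdh2, the cadherin of muscle discs, fell by 0.59 on the log2 scale (SE 0.20, limma adjusted p = 0.0291), with a 95% interval of -1.06 to -0.12. This call was fragile. Omitting any array but WTSham904 took it away (adjusted p between 0.0567 and 0.0940), as did analysis with no filter on dim probes (0.0571) and all-probe median scaling, where the value was -0.06 (adjusted p = 0.786). Over all 18 alternatives the adjusted p ran from 0.000819 to 0.786. Raw intensities overlapped, spanning 104 to 127 without injury and 111 to 122 after IR, and a second Cdh2 probe was detected on 1 array.

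Ctnna3, the catenin that joins both junction types, was dim throughout. Its probe gave 5.55, 5.43 and 5.45 on the uninjured arrays, and 4.59, 4.56 and 4.74 on the IR arrays. It was detected on all 3 uninjured arrays and on the IR array WT3D886 alone. Its detections on uninjured arrays alone were enough for the filter, which thus favoured a fall. Ctnna3 fell by 0.85 on the log2 scale (SE 0.08, limma adjusted p = 3.88e-05). The raw difference was small, from 99.8 to 104 down to 92.8 to 97.8, and without background correction the log2 fold change was -0.30, with the call kept (adjusted p = 0.000208).

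**Figure D2:**
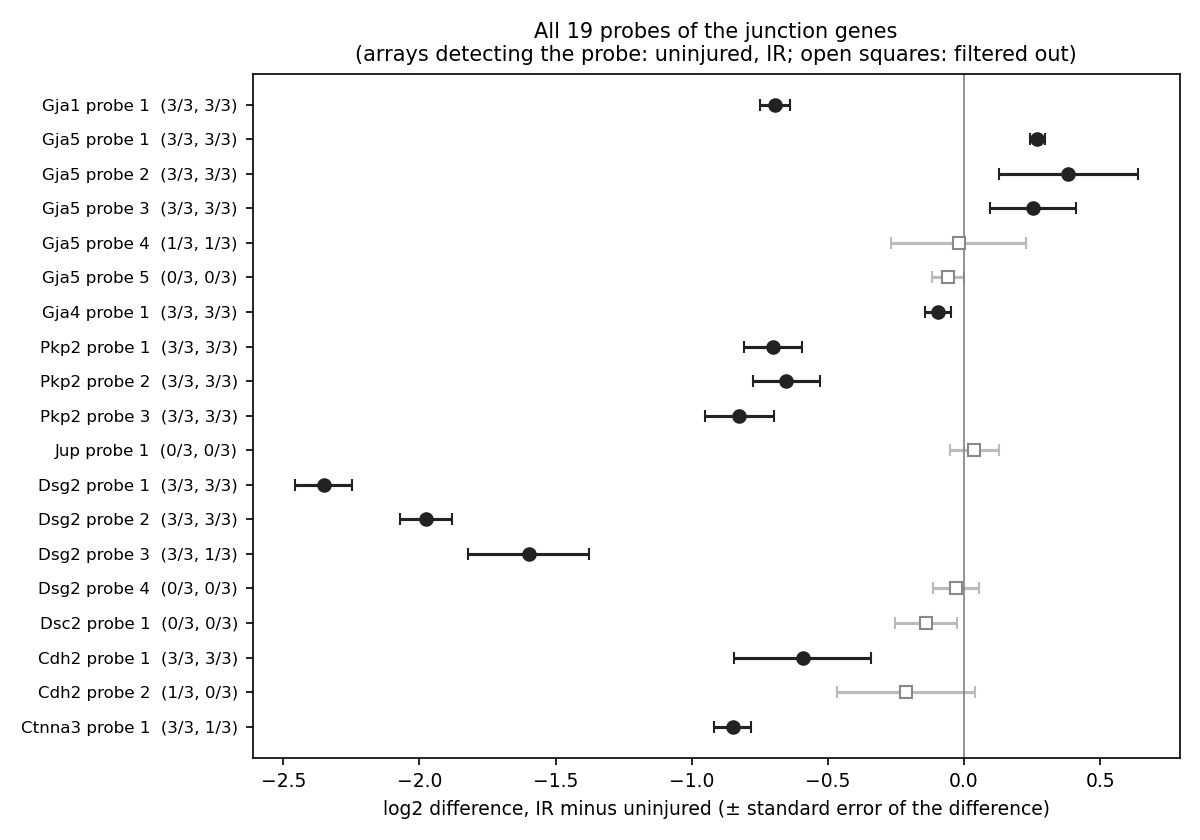
Log2 difference, IR minus uninjured (x axis), for all 19 probes of the junction genes (y axis), with error bars of ± 1 SE from the SDs of both groups of 3 arrays. Labels give the number of arrays of each group that detected the probe. Filled circles are the 13 probes kept and open squares the 6 left out, and the 3 kept probes of Pkp2, of Dsg2 and of Gja5 lie on the same side of 0 within each gene.

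Across probes, 10 of the 13 kept passed in the fit over all 18197 kept probes, where 69.6% of probes were called. The 3 that did not pass were both dimmer Gja5 probes and the Gja4 probe. Among those that passed, the dimmest kept Dsg2 probe and the Ctnna3 probe met the filter through their uninjured arrays. Probes of one gene share their target and are not independent of each other. Of the 6 probes left out, 4 were detected on no array.

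The genes whose 6 values, each set against its own uninjured mean, lay closest to those of Gja1 were Rfx8, Sh3glb2 and Shmt1, with root mean square differences of 0.02, 0.03 and 0.03 on the log2 scale over 6 arrays. Their log2 fold changes were -0.71, -0.72 and -0.71, as the way they were picked requires. Rfx8 was dim, with an uninjured mean of 5.23 against 12.74 for Gja1, and was not detected on all 6 arrays. The likeness belongs to this setting: with all-probe median scaling Sh3glb2 and Shmt1 both stood at -0.11 and lost their calls (adjusted p = 0.412 and 0.437), while Gja1 stood at -0.46. Without background correction Rfx8 stood at -0.25 and Shmt1 at -0.33, against -0.69 for Gja1.

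Among the other connexins and pannexins, 16 of 20 listed genes had a probe, 4 were measured, 1 rose and 2 fell. Counts of calls here and in the lists below stand beside 39.4% of all genes called higher and 34.5% called lower. The median log2 fold change of the 4 was -0.30, and 10 of the 16 were detected on no array. Panx1, a membrane channel that releases ATP and is found in many cell types, had normalized values of 5.25, 5.32 and 5.19 on uninjured and 7.86, 7.91 and 7.86 on IR arrays. It rose by 2.62 (SE 0.07, limma adjusted p = 1.48e-07), and its second probe rose by 2.21. Gjc1, the connexin 45 of the conduction system, fell by 0.52 (SE 0.11, adjusted p = 0.00334), but gave 0.13 with all-probe median scaling (adjusted p = 0.455).

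Of 14 other desmosome genes all had a probe and 9 were detected on no array, among them Dsc1, Dsc3, Dsg1a, Dsg3 and Dsg4, the desmosomal cadherins of stratified epithelia. The 2 measured genes fell. Pkp4, a catenin relative of the plakophilins, fell by 1.10 (SE 0.08, limma adjusted p = 1.15e-05), and its 3 probes all went down. Ppl, the plakin periplakin, fell by 0.86 (SE 0.23, adjusted p = 0.0117), was kept through its uninjured arrays and lost its call with the same 4 arrays alone (adjusted p = 0.0571).

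Of the other cadherins, catenins and adherens junction genes, 14 were measured out of 22 with a probe. In this list 5 rose and 6 fell, with a median log2 fold change of 0.01. Over all genes tested 39.4% rose and 34.5% fell, so these counts are near the general share. Without Cdh3, kept through its IR arrays, and Cdh4 and Vezt, kept through the uninjured ones, 4 rose and 4 fell. Cdh4, the classical cadherin R-cadherin, was detected on all uninjured and no IR arrays and was at least 4.29-fold lower after IR (adjusted p = 2.18e-06), against the lowest value of a detected probe. Ctnnal1, a relative of α-catenin, fell by 2.28 (SE 0.09) and Cdh13, a cadherin anchored in the membrane by lipid, by 1.80 (SE 0.08). Cdh3, or P-cadherin, rose by 1.15 (SE 0.12), having been detected on 1 of 3 uninjured arrays, and by 0.66 in the mean of its probes. The core catenins had small values and were singled out after their values were seen. Ctnna1 (αE-catenin) fell by 0.29 and Ctnnb1 (β-catenin) did not pass at -0.09 (adjusted p = 0.348). Both depended on the scaling, Ctnna1 standing at -0.01 and Ctnnb1 at 0.24 with all-probe median scaling (adjusted p = 0.933 and 0.0922). Under the median of the kept probes Ctnna1 was -0.67 and Ctnnb1 was -0.42, which then passed (adjusted p = 0.00497). Ctnna1 also lost its call with the same 4 arrays alone (adjusted p = 0.0621). The 4 probes of Ctnnb1 disagreed, from -0.84 to 0.49. Vcl, the actin linker vinculin, rose by 0.54 (SE 0.08), also chosen after its value was seen, and stood at 0.25 under the median of the kept probes.

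Genes of proteins that sit at or near the disc gave 33 measured out of 36 with a probe, of which 22 fell and 9 rose, with a median of -0.43. Over all genes tested 34.5% fell and 39.4% rose. In the list without genes kept through one group's arrays, 21 fell and 8 rose. Fgf13, which modulates sodium channels, had normalized values of 9.58, 9.51 and 9.70 in uninjured and 7.15, 7.31 and 7.11 in IR hearts and fell by 2.41 (SE 0.09, limma adjusted p = 4.07e-07). Lrrc10, a leucine-rich repeat protein of heart muscle, fell (-2.36, SE 0.12), as did Lmo7 (-2.34, SE 0.08), which binds the junction protein afadin. Ldb3, the Z-disc protein cypher, fell on its brightest probe (-2.33, SE 0.08), with the weakest of its probes at -0.28. Rises were seen in genes chosen after their values were known. Tmem43, a nuclear envelope protein whose human gene is mutated in arrhythmogenic cardiomyopathy, rose by 1.42 (SE 0.10). Ilk (integrin-linked kinase) rose by 1.23 (SE 0.07) on its brightest probe, by 0.74 in the mean of its probes and by 0.26 on the weakest. Xirp2, an actin-binding protein of the disc, rose by 1.20 (SE 0.06). Des, the desmin of the filaments that desmosomes hold, rose by 0.75 (SE 0.07), and its value stood at 0.29 under the median of the kept probes, with the call kept (adjusted p = 0.0135).

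**Figure D3:**
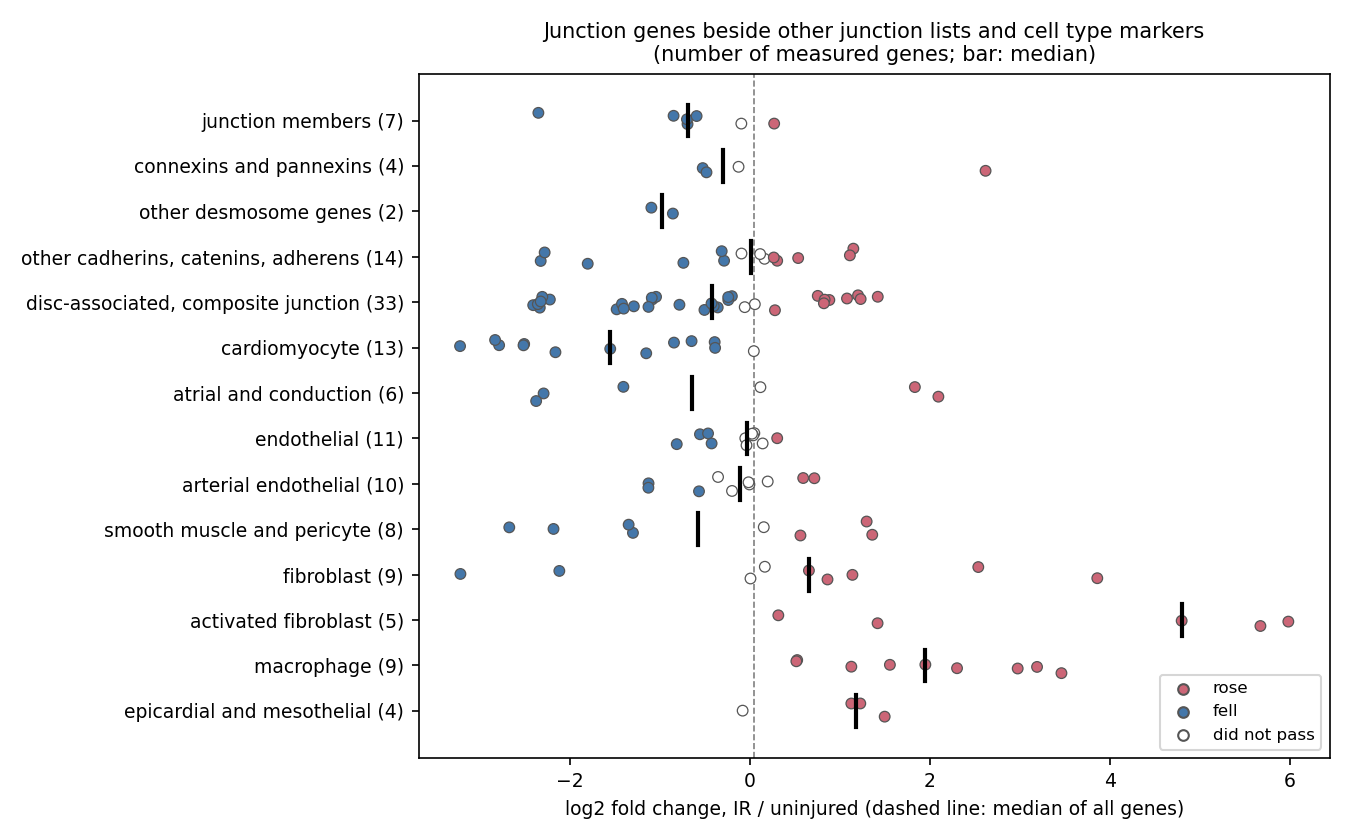
Log2 fold change, IR over uninjured (x axis), of each measured gene in the junction genes, the 4 other junction lists and 9 cell type marker lists (y axis, number measured in brackets). Each point is a gene, coloured by its call at an adjusted p under 0.05. Black bars are list medians and the dashed line is the median of all genes, 0.05. The junction genes (median -0.69) lie between the cardiomyocyte markers (-1.55) and the endothelial markers (-0.04).

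Markers of the cell types that express these genes moved unequally. Of 13 measured cardiomyocyte markers 12 fell, against 34.5% of all genes, with a median of -1.55 and a range from -3.22 to 0.04. Their mean level per array ran from 13.24 to 13.27 without injury and from 11.64 to 11.67 after IR, and the largest falls were those of Tcap (-3.22, SE 0.07) and Pln (-2.83, SE 0.09). The falls of Gja1, Pkp2, Ctnna3 and Cdh2 were smaller than the median of these markers and that of Dsg2 was larger, as values side by side. The part of cardiomyocyte content in the falls of the junction genes was not tested.

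For the connexins of endothelium, 11 of 12 endothelial markers were measured, of which 1 rose, 4 fell and 6 did not pass, with a median of -0.04. The rise was in Cdh5 (0.30, SE 0.10), named after its value was seen, and its second probe gave -0.43. Their mean level ran from 8.87 to 9.01 without injury and from 8.75 to 8.78 after IR, and Kdr was detected on no array. The largest falls were those of Tie1 (-0.81, SE 0.08) and Tek (-0.56, SE 0.07), but with all-probe median scaling they stood at -0.17 and 0.04. Arterial endothelial markers gave 2 rises and 3 falls among 10 measured, with a median of -0.11, and 1 of the rises was in a gene kept through its IR arrays (Jag1, named after its value was seen). Their mean level ran from 7.34 to 7.45 without injury and from 7.18 to 7.20 after IR, and Gata6 (-1.13, SE 0.07) and Hey1 (-1.13, SE 0.07) fell most.

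Of 12 atrial and conduction markers with a probe, 6 were measured, 2 rose and 3 fell, and Myl7, Sln, Bmp10 and Hcn4 were detected on no array. Their mean level ran from 7.92 to 8.05 without injury and from 7.59 to 7.71 after IR. Stard10 (-2.38, SE 0.08, second probe -1.01) and Irx3 (-2.29, SE 0.15), a transcription factor of the conduction system, fell most. The rises were in Dkk3 (2.10, SE 0.08) and Nppa (1.83, SE 0.20), named after their values were seen. The part of atrial tissue in the Gja5 values was not tested.

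Macrophage markers whose detection did not rest on the IR arrays were higher after IR, and so was the 1 such activated fibroblast marker. Of 9 measured macrophage markers, 4 (Itgam, Fcgr1, C5ar1 and Msr1) met the detection filter only because of their IR arrays. The filter thus favoured their rise, and the other 5 all rose. The mean level of the list, those 4 included, ran from 6.23 to 6.36 without injury and from 8.21 to 8.29 after IR. Lyz2 (3.19, SE 0.10) was detected on all arrays, and Fcgr1 (3.46, SE 0.07) on 1 uninjured array and all IR arrays. Of 5 measured activated fibroblast markers, 4 (Postn, Cthrc1, Tnc and Lox) were kept through their IR arrays, which leaves Fap, which rose by 1.42 (SE 0.13) and is named for that reason after its value was seen. The list's mean level, with the 4 kept through IR included, ran from 4.67 to 4.82 without injury and from 8.35 to 8.43 after IR. Lox (5.99, SE 0.21) and Tnc (5.68, SE 0.10) had the largest differences, each detected on 1 uninjured array, and Tnc gave 3.34 in the mean of its probes, of which the lowest stood at 0.32. Of 9 fibroblast markers 5 rose and 2 fell, from 8.60 to 8.76 up to 9.10 to 9.18. Col1a1 (3.86, SE 0.12) rose and Gsn (-3.22, SE 0.06) fell on its brightest probe, while its second probe gave 1.85. Of 8 smooth muscle and pericyte markers 3 rose and 4 fell, from 7.77 to 7.81 down to 7.23 to 7.29, with Abcc9 (-2.68, SE 0.08) and Rgs5 (-2.18, SE 0.11) falling most. The rises were in Acta2 (1.36, SE 0.08), Tagln (1.30, SE 0.09) and Pdgfrb (0.56, SE 0.09), named after their values were seen. Of 4 measured epicardial and mesothelial markers 3 (Krt8, Krt18 and Upk1b) passed as higher, and all 3 were kept through their IR arrays. The other, Upk3b, did not pass (-0.08, adjusted p = 0.525). The list's mean level, with the 3 kept through IR included, ran from 4.67 to 4.85 without injury and from 5.63 to 5.77 after IR. Krt8 was at least 2.34-fold higher after IR, lying below detection on every uninjured array, and Upk1b, detected on 2 uninjured arrays, rose by 1.23 (SE 0.21). The part of these cells in the values of the junction genes was not tested.

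Values of the junction genes moved with the scaling. Raw medians and 75th percentiles were higher on every IR array than on every uninjured one, while the brightest probe read 16845 to 17260 on IR arrays and 20059 to 22057 on uninjured arrays. Over all genes the median change was 0.05 after quantile normalization, 0.52 with arrays scaled to the median of all probes and -0.14 with the median of the kept probes. Of genes called, 53.3%, 77.4% and 42.6% were higher after IR in these settings. Set against the median of all genes in the same setting, Gja1 stood at -0.74 after quantiles and at -0.98 after either median scaling, and Gja5 at 0.22 and 0.34. Both median scalings must give the same value here, since a factor per array cancels. With all-probe median scaling 2 junction genes rose (Gja5 and Gja4) and 3 fell (Gja1, Dsg2 and Ctnna3).

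**Figure D4:**
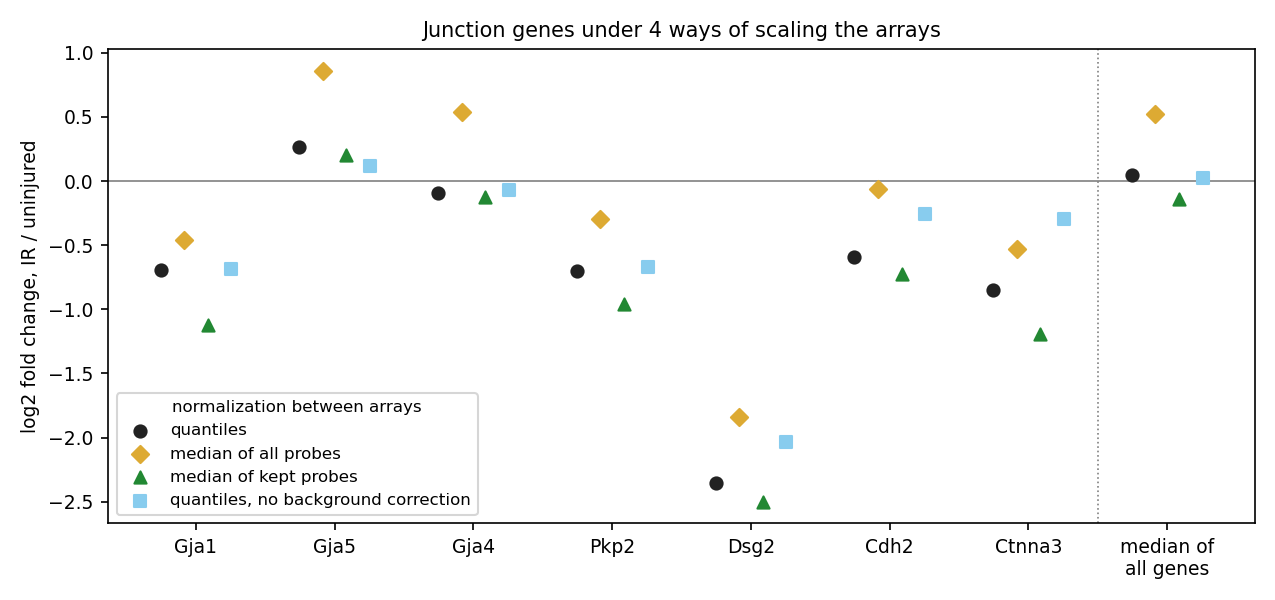
Log2 fold change, IR over uninjured (y axis), of the 7 measured junction genes and the median of all genes (x axis) under 4 ways of bringing the arrays to one scale. Each symbol is the value from 3 arrays per group. Dsg2, Gja1, Ctnna3, Pkp2 and Cdh2 stay below 0 and Gja5 above 0 in all 4, and Gja4 changes sign. Pkp2 and Cdh2 have no call under the median of all probes.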

How the data were processed

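The deposited table gave, per the file headers, the mean bead intensity of 45281 probes and a detection p-value for each on 6 arrays. GenomeStudio 2010.3 is named in the submitters' processing notes, without its role. Judged by their values, the deposited intensities were neither background-subtracted nor normalized. The authors' processed intensities, quantile-normalized as read from their values (shared extremes, column medians of 88.37 to 88.43), served as an alternative.

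Values were computed with neqc of limma 3.58.1 in R 4.3.3 (normexp from the detection p-values, offset 16, quantiles, log2). Probes with a detection p-value under 0.05 on at least 3 of the 6 arrays were kept (18197). Names came from the platform annotation, updated through Entrez identifiers against RefSeq GRCm38.p6: 34885 probes had 1 symbol, 18 several and 10378 none. A gene took its brightest kept probe (10204 genes). lmFit and eBayes tested the groups with no block, with Benjamini-Hochberg adjustment and a threshold of 0.05. "At least N-fold" compares the brighter mean with the higher of the dim value and the lowest detected value per array. Fold changes are on the scale of corrected intensity plus 16, which understates dim genes. Depth has no counterpart on arrays, and the number of arrays limits the precision.

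The members and lists were chosen with earlier results of these data known. The rule for naming took all 10 members, up to 4 called genes of each other junction list and 2 of each marker list with the largest change and no overlap of groups, and the 3 genes most like Gja1. Alternatives covered the background correction, scaling, offset (50), filter, probe choice, the authors' values, blocks, subsets of arrays, robust eBayes (statmod 1.5.0) and each array left out. The fit was tested on simulated data.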

Additional observations from a re-analysis of the deposited data

How the results depend on the processing

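Each result was recomputed under 18 alternatives. Gja1, Dsg2 and Ctnna3 kept their direction and call in every alternative that measured them, which for Ctnna3 leaves out the filter for detection on all 6 arrays. Scaling to the median of all probes turned Gja4 to 0.54, Gjc1 to 0.13, Tek to 0.041 and Ctnnb1 to 0.24, left Pkp2 at -0.30 and Cdh2 at -0.064 without a call, as well as Sh3glb2 and Shmt1 (both -0.11), Tie1 (-0.17) and Ctnna1 (-0.01), and gave 2 rises and 3 falls among the junction genes. Over all genes it gave 6091 rises and 1779 falls in place of 4022 and 3523, none falling among the other connexins and pannexins (0), and 3 falls among the other adherens junction genes. With no filter Cdh2 stayed at -0.59 but lost its call, over 19057 genes, and 1 other connexin or pannexin fell in place of 2. The filter for detection on all 6 arrays, with fewer genes tested, gave 1 fall in that list and 1 among the other desmosome genes. The mean of all probes gave 3 rises in the adherens junction list. The array number series as a block gave 1 fall in the connexin and pannexin list. WTSham109, WTSham110, WT3D106 and WT3D107 alone, with fewer samples, left Gja5 at 0.24 without a call, 0 rises among the junction genes, 1 fall among the other desmosome genes and 3 rises in the adherens junction list. Leaving out each array gave Cdh2 values of -0.82 to -0.41, and 1 to 2 falls in the connexin and pannexin list. The cause of these changes was not tested where no construction is named.

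The label replicate numbers are carried by the authors' processed values alone. Same-numbered arrays did not deviate together (correlations of -0.03, -0.01 and -0.07 across genes), so they share a number only. With the replicate block, fitted on the authors' processed values, 3941 genes rose and 3494 fell, against 4000 and 3529 without it. Gja5 had a value of 0.12 (adjusted p = 0.0675 with the replicate block, 0.0322 without), so 0 junction genes rose, and no other call of a junction gene changed. Low signal over background limits Gja5, Cdh2 and Ctnna3, and leaves Jup and Dsc2 unmeasured.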
